A study of Mus musculus with 12 samples.

Results

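The genes described here encode the thick filament of the striated muscle sarcomere: the myosin heavy chains Myh6 and Myh7, the essential light chains Myl1, Myl3 and Myl4, the regulatory light chains Myl2, Myl7 and Mylpf, and the myosin-binding protein Mybpc3. The members were all the array's probe sets that the platform annotation gives to one of these 9 symbols. This gave 15 of the 22626 probe sets tested, or 9 of 12393 genes. Of the 15 probe sets, 13 carried a single symbol and 2 were shared by Myh7 and Myh6, whose sequences are closely alike. Mouse embryonic fibroblasts (MEFs) of the C57BL/6 strain carried the doxycycline-dependent transactivator M2rtTA in every group, delivered by lentivirus before the cells were divided. TF group 3 overexpressed GATA4, TBX5, MEF2C, Mesp1, SMARCD3, MYOCD and SRF. TF group 2 overexpressed the same factors without MYOCD and SRF, and TF group 1 only GATA4, TBX5 and MEF2C. The negative control carried M2rtTA alone. All groups received doxycycline for 7 days, and 3 arrays labelled as biological replicates were hybridized per group. The induction medium also held valproic acid and additional serum.

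A thick filament is a bundle of myosin molecules, each made of heavy chains that hydrolyse ATP and pull on actin, and of light chains that stiffen the lever arm of the head. The essential and regulatory light chains exist in forms that mark the muscle type: Myl7 and Myl4 are the atrial forms, Myl2 and Myl3 the ventricular and slow skeletal forms, and Mylpf and Myl1 the fast skeletal forms. In the mouse heart Myh6 is the main adult heavy chain and Myh7 the fetal one, while Mybpc3 is the cardiac myosin-binding protein that anchors to titin and slows cross-bridge cycling.

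The deposited values were linear probe set signals, and the number of arrays limited their precision. Replicate arrays correlated at 0.96 to 0.966 over all probe sets, and TF arrays correlated with negative control arrays at 0.922 to 0.933. Between 20.4% and 24.2% of the probe sets on an array lay below a signal of 32, which was used here as the floor under which a level was not read. Mesp1, the one mouse cDNA among the delivered factors, had signals of 1730, 1590 and 1250 in TF group 3, 2120, 2150 and 2000 in TF group 2, 112, 114 and 121 in TF group 1 and 88.2, 180 and 124 in the negative control, in keeping with the groups' labels. The fibroblast markers stayed above the floor in all groups: none of the 11 measured lay below 32, and their summed signal was 70460 to 74144 in TF group 3, 73284 to 78208 in TF group 2, 90850 to 97175 in TF group 1 and 76064 to 79570 in the negative control. Single markers moved against the negative control: in TF group 3 Lum, S100a4 and Pdgfra were 3.67-fold, 2.46-fold and 2.44-fold lower, in TF group 2 S100a4 and Pdgfra were lower and Dcn higher, and in TF group 1 S100a4 was lower and Lum and Dcn higher, and their part in the results below was not tested. These were whole MEF populations, so more expressing cells and more transcript per cell cannot be told apart. The 12 poly-A spike probe sets were on average 0.88 log2 units brighter in the TF groups relative to the negative control. Their mean log2 signal varied among the negative control arrays (7.89, 6.99 and 7.39) and was 8.20 to 8.45 on the TF arrays. Scaling the arrays to these spikes shifted the median change of all probe sets against the negative control to -0.79 in TF group 3, -0.77 in TF group 2 and -0.91 in TF group 1. For TF group 3 against the negative control it called 2.82% of all probe sets higher and 49.7% lower, and centring each array on its median called 10.8% higher and 12.4% lower.

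Upregulation against the negative control was the rule in TF group 3, whereas TF groups 2 and 1 each raised a part of the set. A probe set was called when its adjusted p was under 0.05 and its fold change over 1.5. In TF group 3, 8 of the 15 member probe sets were called higher and 0 lower against the negative control, beside 13.6% of all probe sets higher and 9.36% lower. In TF group 2, 4 were called higher and 0 lower, beside 13.7% and 9.98%. In TF group 1, 3 were called higher and 1 lower, beside 13.6% and 9.06%. The 3 higher in TF group 1 were 20% of the member probe sets, and these counts are near the shares over all probe sets. Taking the leading (brightest) probe set of each gene, 7 of 9 genes rose in TF group 3 (beside 14.7% of all genes higher and 9.84% lower), 4 in TF group 2 (beside 15.3% and 10.1%) and 3 in TF group 1, where 1 fell (beside 15.1% and 8.93%). At an unadjusted p from limma under 0.05 with the same fold limit, 0 member probe sets were lower in TF group 3 and 0 in TF group 2 as well. Beside this, 10.3% and 11% of all probe sets were lower, a small share for a set of 15. The median log2 change of the 9 leading probe sets was 1.79 in TF group 3, 0.81 in TF group 2 and 0.17 in TF group 1, against medians over all genes of 0.05, 0.06 and 0.07. The same negative control arrays served all of these comparisons. Of the 15 member probe sets, 4 lay below 32 on all 12 arrays and gave no level: a pair for Myl3, one for Myh6 and one of those shared by Myh7 and Myh6.

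**Figure D1:**
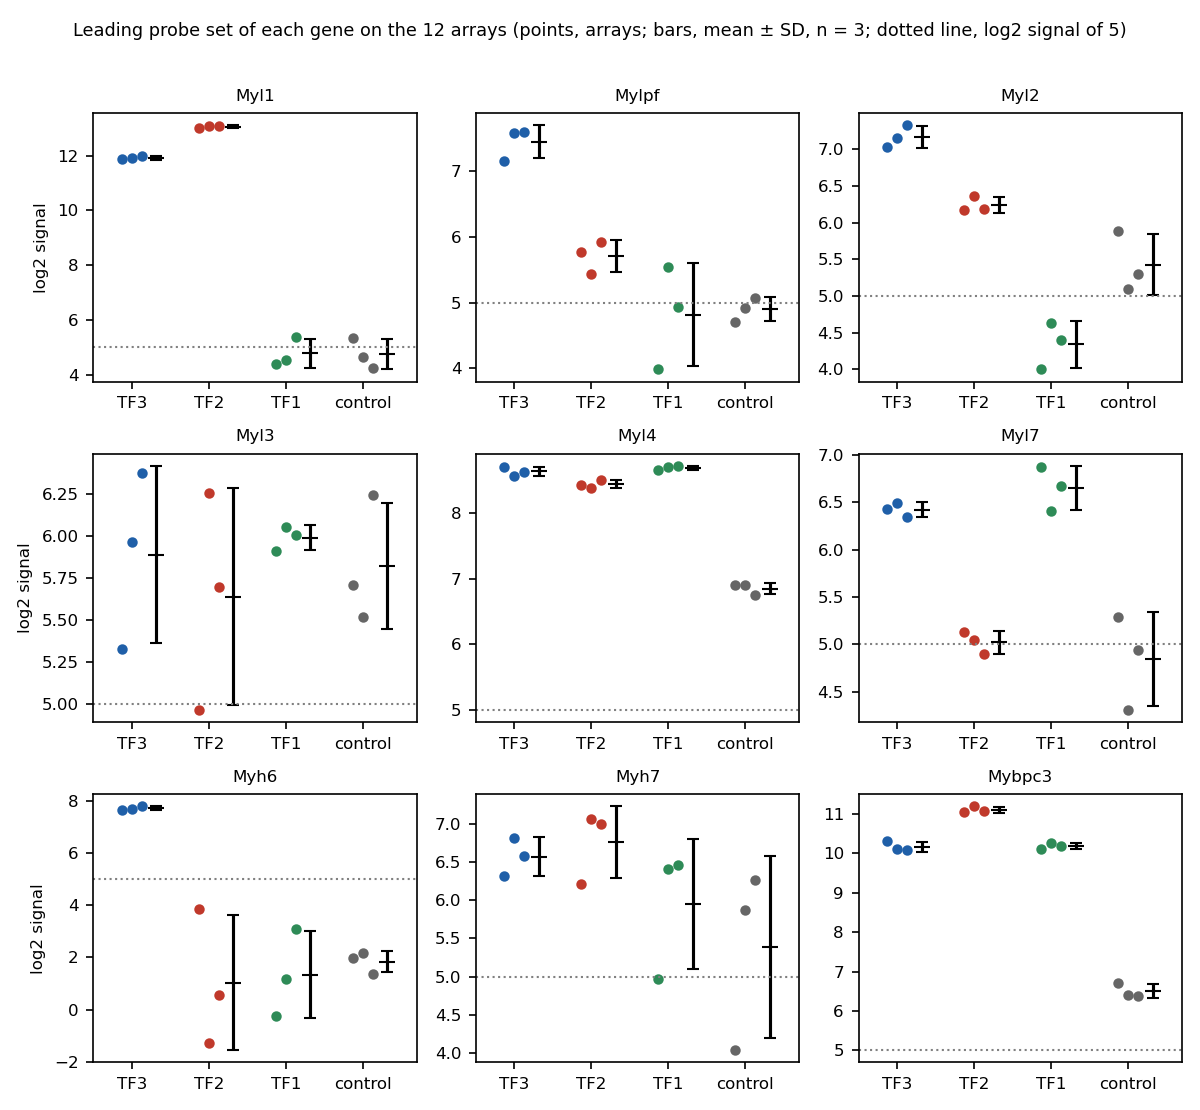
Log2 signal of the leading probe set of each of the 9 genes on the 12 arrays, in TF group 3, TF group 2, TF group 1 and the negative control (3 points each, one per array, with mean and SD beside them). The dotted line marks the log2 floor of 5, and each panel has its own vertical scale; Myl1 separates TF groups 3 and 2 from the rest, Myh6 separates TF group 3 from the rest, and Mybpc3 and Myl4 are above the negative control in every TF group.

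The promoters of 4 members are shown because their genes gave the contrasting patterns described below: Myl1 was high in TF groups 3 and 2, Mybpc3 in every TF group, Myl7 in TF groups 3 and 1, and Myh6 in TF group 3. Each window covers 250 bases before to 50 after an annotated start in RefSeq (build GRCm38.p6), written 5′ to 3′ on the gene's strand. Capitals mark the motifs searched on both strands: the CArG box (bound by SRF), the MEF2 site, GATAA (GATA factors), GGTGTG (T-box factors), CANNTG (the E-box of bHLH factors, the family of Mesp1) and CATTCC (the MCAT element of muscle genes).
Myl1, chr1:66945007-66945306, minus strand: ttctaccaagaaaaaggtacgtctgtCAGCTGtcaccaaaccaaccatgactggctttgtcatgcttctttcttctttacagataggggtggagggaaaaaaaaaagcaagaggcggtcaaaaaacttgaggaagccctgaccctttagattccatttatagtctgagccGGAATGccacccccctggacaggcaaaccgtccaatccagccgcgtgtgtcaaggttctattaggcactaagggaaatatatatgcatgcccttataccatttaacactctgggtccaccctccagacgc
Mybpc3, chr2:91117894-91118193, plus strand: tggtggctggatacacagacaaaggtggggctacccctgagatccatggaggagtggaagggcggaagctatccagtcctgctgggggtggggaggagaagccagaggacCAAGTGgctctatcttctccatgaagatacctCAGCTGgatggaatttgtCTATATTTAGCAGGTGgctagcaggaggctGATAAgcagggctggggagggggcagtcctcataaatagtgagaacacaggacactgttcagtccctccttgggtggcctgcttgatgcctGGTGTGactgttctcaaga
Myl7, chr11:5898733-5899032, minus strand: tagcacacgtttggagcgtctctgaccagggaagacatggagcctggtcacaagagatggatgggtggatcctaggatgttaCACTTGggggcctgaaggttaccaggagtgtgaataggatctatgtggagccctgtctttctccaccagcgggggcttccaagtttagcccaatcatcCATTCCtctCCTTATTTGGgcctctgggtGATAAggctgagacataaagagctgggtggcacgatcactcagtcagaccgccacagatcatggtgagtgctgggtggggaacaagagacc
Myh6, chr14:54966558-54966857, minus strand: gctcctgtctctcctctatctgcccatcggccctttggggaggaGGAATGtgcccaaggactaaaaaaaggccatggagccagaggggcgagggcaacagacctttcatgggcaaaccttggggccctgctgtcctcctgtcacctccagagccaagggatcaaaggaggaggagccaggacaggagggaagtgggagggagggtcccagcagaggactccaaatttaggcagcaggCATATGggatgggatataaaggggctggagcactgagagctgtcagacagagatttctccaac
In the Myl7 window a CArG box, CCTTATTTGG, lay at bases -61 to -52 from the start, between a CATTCC match at -70 to -65 and a GATAA match at -41 to -37. In the Mybpc3 window a MEF2 site, CTATATTTAG, lay at -90 to -81 and ran directly into an E-box at -80 to -75, with GATAA at -60 to -56 and GGTGTG at 31 to 36. The Myl1 window held an E-box at -224 to -219 and a CATTCC match, on the opposite strand, at -80 to -75. The Myh6 window held an E-box at -13 to -8 and a CATTCC match, on the opposite strand, at -206 to -201.

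Windows were found for all 9 genes, 11 windows in all since Myh7 and Myl2 each had a pair of starts. A gene was counted when any of its windows held the motif, whereas the shares beside the counts are over single windows. A CArG box was present in 2 of the 9 genes (Myl7 and Myl3) and in 1.63% of the 32851 windows of the table. A MEF2 site was present in 1 of the 9 (Mybpc3) and in 3.19% of all windows. GATAA was present in 4 genes (Myl2, Myl3, Myl7 and Mybpc3) and in 25.4% of windows, and GGTGTG in 1 gene (Mybpc3) and in 19% of windows. The short E-box was found in 8 of the 9 genes, all but Myl4, and in 72.3% of windows, and CATTCC in 5 genes and in 14.7% of windows. No matches of different motifs overlapped in the members' windows. Myl4, which rose in all TF groups, held none of the searched motifs in its window. These matches describe letters in short windows at annotated starts. Other starts and distant elements were not searched.

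**Figure D2:**
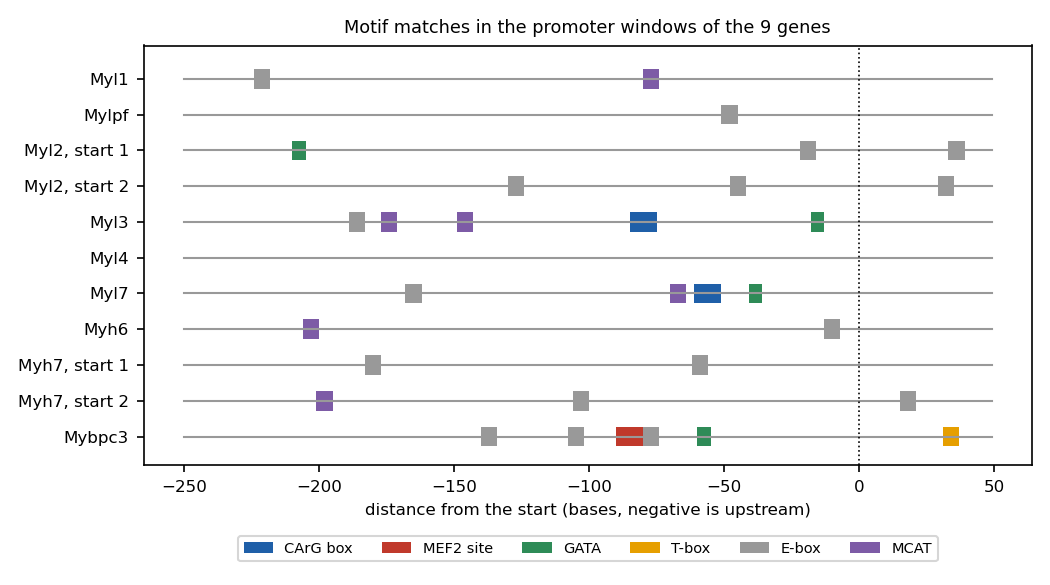
Positions of the motif matches in the 11 promoter windows of the 9 genes, in bases from the annotated start (dotted line), with one row per window and one colour per motif. The CArG box of Myl7 and the MEF2 site of Mybpc3 lie within 90 bases of the start, and the Myl4 row is empty.

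Among the essential light chains, Myl1 gave the largest change of the whole set. Myl1 (probe set 1452651_a_at) had signals of 3740, 3840 and 4100 in TF group 3, 8270, 8690 and 8710 in TF group 2, 21.0, 23.5 and 41.9 in TF group 1 and 40.4, 24.8 and 19.1 in the negative control. The arrays of TF groups 3 and 2 lay far above those of TF group 1 and the negative control, which overlapped around the floor. Against the negative control, Myl1 rose at least 122-fold in TF group 3 (log2 change 7.18, SE 0.30, adjusted p = 1.71e-07), the mean being set against the floor of 32. In TF group 2 it rose at least 267-fold (log2 change 8.32, adjusted p = 6.49e-08). In TF group 1 the log2 change was 0.03 with a 95% interval of -0.64 to 0.70 (adjusted p = 0.945), so a change of the size seen in the other groups lay far outside its interval. Scaled to the spikes, this value became -0.93 and was called, beside a median of -0.91 for all probe sets under that scaling.

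Markers of skeletal muscle, the tissue of Myl1, were called higher about as often as all genes in TF groups 3 and 2. Of the 12 skeletal muscle markers, 2 (Chrna1 and Des) were called above the negative control in TF groups 3 and 2 and 0 in TF group 1, beside 14.7%, 15.3% and 15.1% of all genes in TF groups 3, 2 and 1. Acta1, skeletal alpha-actin, fell by 1.39 log2 units in TF group 3, fell by 2.67 in TF group 2 and fell by 2.73 in TF group 1. The defining markers Myog, Myf6, Chrnd and Chrng had group means below 32 everywhere, and Myod1 was not called in any comparison with the negative control. The summed signal of the list was 1243 to 1333 in TF group 3, 831 to 900 in TF group 2, 721 to 776 in TF group 1 and 1906 to 2111 in the negative control. The part of skeletal muscle cells in the Myl1 result was not tested.

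Myl4, the atrial essential light chain that is also made in embryonic skeletal muscle, rose in all TF groups. Its leading probe set (1422580_at) had signals of 418, 380 and 394 in TF group 3, 344, 333 and 363 in TF group 2, 401, 414 and 419 in TF group 1 and 119, 119 and 108 in the negative control. Every TF array stood above every negative control array, and arrays of TF group 2 were the lowest of the TF arrays. The rise against the negative control was 3.45-fold in TF group 3 (log2 change 1.79, SE 0.07, adjusted p = 9.09e-08), 3.01-fold in TF group 2 (adjusted p = 1.38e-07) and, in TF group 1, 3.58-fold (adjusted p = 9.23e-08). A dimmer probe set of the same gene (1457126_at) did not show this, with mean signals of 55.9 in TF group 3, 45.6 in TF group 2, 45.8 in TF group 1 and 48.8 in the negative control and no call. The probe sets of Myl4 thus disagreed, and the array cannot say which transcripts each of them detected.

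Myl3, the ventricular and slow skeletal essential light chain, was not called in any comparison. Its leading probe set (1428266_at) had signals of 40.2, 62.4 and 83.3 in TF group 3, 31.2, 76.5 and 51.8 in TF group 2, 60.1, 66.5 and 64.4 in TF group 1 and 52.2, 45.8 and 75.8 in the negative control. All groups overlapped a little above the floor. The log2 changes against the negative control were 0.07 in TF group 3, -0.18 in TF group 2 and 0.17 in TF group 1, each with an SE of 0.35.

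The regulatory light chains each showed a different order of the groups. Mylpf, the fast skeletal regulatory chain (1448371_at), had signals of 143, 192 and 194 in TF group 3, 54.7, 43.2 and 60.4 in TF group 2, 15.8, 46.7 and 30.4 in TF group 1 and 26.2, 30.1 and 33.7 in the negative control. TF group 3 stood clear of all other arrays, TF group 2 lay above the negative control, and TF group 1 spanned the range of the negative control. Mylpf rose at least 5.47-fold in TF group 3 (log2 change 2.55, SE 0.34, adjusted p = 2.28e-04). The log2 change of 0.81 in TF group 2 missed the threshold (adjusted p = 0.0879) and passed it when only the arrays of TF group 2 and the negative control were fitted (adjusted p = 0.0166, with 0.0166 to 0.994 over the alternatives other than single arrays left out).

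Myl2, the ventricular and slow skeletal regulatory chain, was the single member called in opposite directions against the negative control. Its signals (1448394_at) were 130, 142 and 160 in TF group 3, 72.1, 82.3 and 72.9 in TF group 2, 16.0, 24.8 and 21.1 in TF group 1 and 59.3, 34.2 and 39.3 in the negative control. No groups overlapped, TF group 3 being highest and TF group 1 lowest. Against the negative control, Myl2 rose 3.34-fold in TF group 3 (log2 change 1.74, SE 0.21, adjusted p = 1.46e-04) and by 1.76-fold in TF group 2 (adjusted p = 0.0129). In TF group 1, where all arrays lay below the floor, it fell by 1.08 log2 units (adjusted p = 0.00281), at least 1.34-fold against the floor. This fall was not called when signals below 32 were set to 32 (log2 change -0.43, adjusted p = 0.0936, with 2.68e-05 to 0.0936 over the alternatives other than single arrays left out). The rise in TF group 2 went to 0.00 with the arrays scaled to the spikes, where the median of all probe sets was -0.77. It was also not called at a fold over 2, or with an offset of 50 before log2 (log2 change 0.42, below the fold limit).

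Myl7, the atrial regulatory chain, was high with TF groups 3 and 1 but not with TF group 2. Its signals (1449071_at) were 86.0, 90.2 and 81.1 in TF group 3, 34.9, 32.9 and 29.7 in TF group 2, 117, 84.7 and 102 in TF group 1 and 39.0, 19.8 and 30.6 in the negative control. TF groups 3 and 1 overlapped each other, and TF group 2 overlapped the negative control. Against the negative control, Myl7 rose at least 2.68-fold in TF group 3 (log2 change 1.58, SE 0.22, adjusted p = 3.06e-04) and, in TF group 1, at least 3.13-fold (log2 change 1.80, adjusted p = 1.34e-04). In TF group 2 the log2 change was 0.17, with a 95% interval of -0.32 to 0.67 (adjusted p = 0.582), and it became -0.64, a called fall, with the arrays scaled to the spikes, where the median of all probe sets was -0.77.

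Of the heavy chains, Myh6 reached the floor in TF group 3 and in no other group. The signals of its leading probe set (1448826_at) were 198, 206 and 220 in TF group 3, 14.3, 0.415 and 1.46 in TF group 2, 0.844, 2.25 and 8.52 in TF group 1 and 3.99, 4.45 and 2.58 in the negative control. The TF group 3 arrays agreed closely, and all other arrays lay below the floor, where values have no order. Myh6 rose at least 6.49-fold over the negative control in TF group 3 (log2 change 5.86, SE 1.18, adjusted p = 0.00314), the fitted change depending on values below the floor. A probe set shared by Myh7 and Myh6 (1448554_s_at) followed it, with 106, 108 and 100 in TF group 3, 14.9, 6.92 and 5.17 in TF group 2, 1.77, 4.38 and 18.9 in TF group 1 and 5.10, 11.9 and 6.27 in the negative control. It rose at least 3.27-fold in TF group 3 (log2 change 3.85, SE 0.76, adjusted p = 0.00279). The other Myh6 probe set (1417729_at) and the other shared one (1448827_s_at) stayed below 32 on every array and were not called.

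Myh7, the neighbour of Myh6 in the genome, varied among replicates. Its SDs of log2 signal were 0.25 in TF group 3, 0.47 in TF group 2, 0.85 in TF group 1 and 1.19 in the negative control. Its own probe set (1448553_at) had signals of 79.7, 113 and 96.0 in TF group 3, 74.5, 134 and 128 in TF group 2, 31.3, 85.0 and 88.6 in TF group 1 and 16.4, 58.6 and 77.3 in the negative control. The arrays of TF group 3 lay above all negative control arrays, while replicate 1 was the lowest array in every group. The log2 change was 1.18 in TF group 3 (SE 0.59, adjusted p = 0.154), 1.37 in TF group 2 (adjusted p = 0.0997) and 0.55 in TF group 1, and none was called. Without replicate 3 of the negative control the change in TF group 2 became 1.81 and was called (adjusted p = 0.0493, with 0.0493 to 0.297 over the arrays left out in turn). It was also called in TF group 2 with an intensity trend in the variance (adjusted p = 0.0411) and with an offset of 50 before log2 (adjusted p = 0.0437), with 0.0137 to 0.5 over the alternatives other than single arrays left out. Cross-hybridization between the near-identical heavy chain transcripts was not tested.

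Mybpc3 rose strongly in every TF group and was most abundant in TF group 2. Its signals (1418551_at) were 1280, 1110 and 1080 in TF group 3, 2110, 2350 and 2170 in TF group 2, 1100, 1230 and 1160 in TF group 1 and 104, 85.2 and 83.7 in the negative control. TF groups 3 and 1 overlapped, TF group 2 lay above both, and the negative control lay far below. The rise over the negative control was 12.8-fold in TF group 3 (log2 change 3.67, SE 0.10, adjusted p = 1.98e-08), 24.4-fold in TF group 2 (log2 change 4.61, adjusted p = 8.38e-09) and, in TF group 1, 12.9-fold (log2 change 3.69, adjusted p = 2.97e-08).

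**Figure D3:**
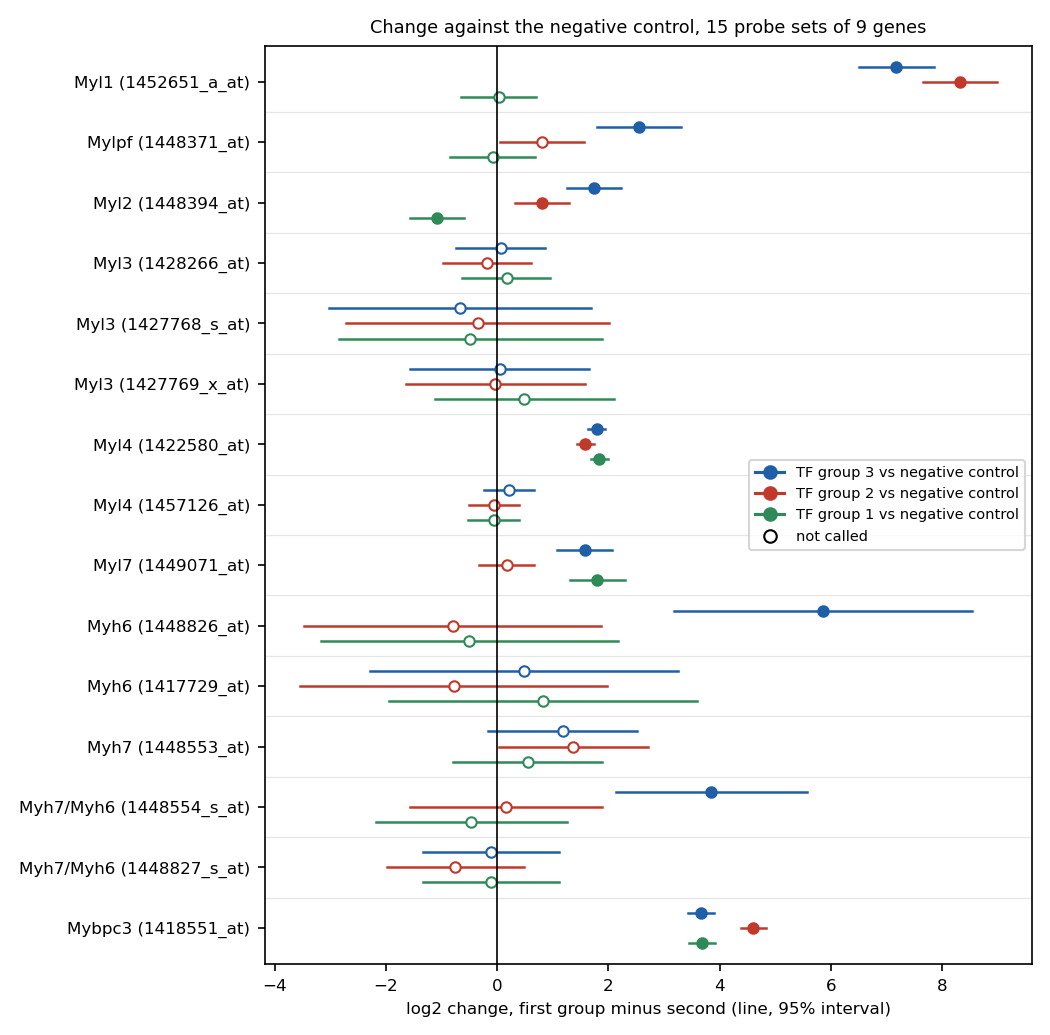
Log2 change against the negative control for all 15 member probe sets in TF group 3 (blue), TF group 2 (red) and TF group 1 (green), with 95% intervals and open circles where a change was not called. Myl1 in TF groups 3 and 2, at 7.18 and 8.32, stands farthest to the right, and the wide intervals belong to probe sets near or below the floor.

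The comparison of TF group 3 with TF group 2 set cells with MYOCD and SRF beside cells without them. Myh6, Myl7, Mylpf and Myl2 were higher in TF group 3, and Mybpc3 and Myl1 were lower. Mesp1, which both groups received, had a lower signal on every TF group 3 array than on any TF group 2 array. Its log2 change of -0.47 was not called (adjusted p = 0.265). The part of unequal doses of the shared factors in these differences was not tested. Of the 15 probe sets, 5 were called higher in TF group 3 and 2 lower, beside 2.18% and 1.39% of all probe sets. Myl7 was 2.64-fold higher in TF group 3 than with TF group 2 (log2 change 1.40, adjusted p = 0.00441), and Mybpc3 was 1.91-fold lower (log2 change -0.93, adjusted p = 6.66e-04). Myh6 was at least 6.49-fold higher (adjusted p = 0.00841), and the shared heavy chain probe set at least 3.27-fold (adjusted p = 0.0177). When these groups alone were fitted, Myh6 missed the threshold (adjusted p = 0.0587, with 3.01e-10 to 0.0587 over the alternatives other than single arrays left out).

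The calls of the fast chains and of Myl2 in this comparison were near the threshold. Myl1 was 2.2-fold lower in TF group 3 than with TF group 2 (log2 change -1.14, adjusted p = 0.0465). Its arrays did not overlap between these groups, but the call was lost whichever of the 6 arrays was left out (adjusted p = 0.106 to 0.126). Over the alternatives other than single arrays left out, the adjusted p was 5.98e-05 to 0.108. The SE of 0.30 pooled all 4 groups. The SDs of log2 signal of Myl1 were 0.07 in TF group 3, 0.04 in TF group 2, 0.54 in TF group 1 and 0.55 in the negative control. Myl2 exceeded its TF group 2 level by 1.9-fold in TF group 3 (adjusted p = 0.0297), and its call was also lost without any one of the 6 arrays (adjusted p = 0.0599 to 0.1). Mylpf was 3.35-fold higher (log2 change 1.74, adjusted p = 0.0129), and missed the threshold without TF group 2 replicate 2 (log2 change 1.61, adjusted p = 0.0528, with 0.0284 to 0.0528 over the arrays left out in turn). The shared heavy chain probe set lost its call without 5 of the 6 arrays, all but TF group 2 replicate 1 (adjusted p = 0.0271 to 0.0681). Its adjusted p was 1.08e-09 to 0.0641 over the alternatives other than single arrays left out, and its arrays did not overlap between these groups. Myl4 did not pass the test, with a log2 change of 0.20 (adjusted p = 0.104).

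In TF group 2 against TF group 1, which differ by Mesp1 and SMARCD3, Myl1, Myl2 and Mybpc3 rose and Myl7 fell. This made 3 probe sets higher in TF group 2 and 1 lower, beside 1.7% and 1.57% of all probe sets. Myl1 rose at least 267-fold in TF group 2 (log2 change 8.29, adjusted p = 1.24e-06) and Mybpc3 1.9-fold higher (log2 change 0.92, adjusted p = 7.75e-04). Myl2 was at least 2.36-fold higher (log2 change 1.90, adjusted p = 8.59e-04). Myl7 was 3.09-fold lower in TF group 2 than with TF group 1 (log2 change -1.63, adjusted p = 0.00228). Mylpf, with a log2 change of 0.89, was not called (adjusted p = 0.178) but passed without TF group 1 replicate 2 (log2 change 1.25, adjusted p = 0.0452, with 0.0452 to 0.356 over the arrays left out in turn). Myl4 was at the edge of the threshold with a log2 change of -0.25 (adjusted p = 0.0556), below the fold limit.

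Against TF group 1, TF group 3 carried all of Mesp1, SMARCD3, MYOCD and SRF in addition. Here 5 probe sets were called higher in TF group 3 and 0 lower, beside 3.04% and 2.62% of all probe sets. At an unadjusted p from limma under 0.05, 0 were lower as well, beside 4.23% of all probe sets. Myl1 rose at least 122-fold in TF group 3 (adjusted p = 1.63e-06), Mylpf at least 5.47-fold (adjusted p = 9.51e-04), Myl2 at least 4.49-fold (adjusted p = 5.55e-05) and Myh6 at least 6.49-fold (adjusted p = 0.00693), with the shared heavy chain probe set at least 3.27-fold (adjusted p = 0.00539). Mybpc3 differed by -0.01 log2 units with a 95% interval of -0.24 to 0.22, and Myl7 by -0.22 with an interval of -0.72 to 0.27. For both of these genes TF group 3 lay closer to TF group 1 than to TF group 2.

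**Figure D4:**
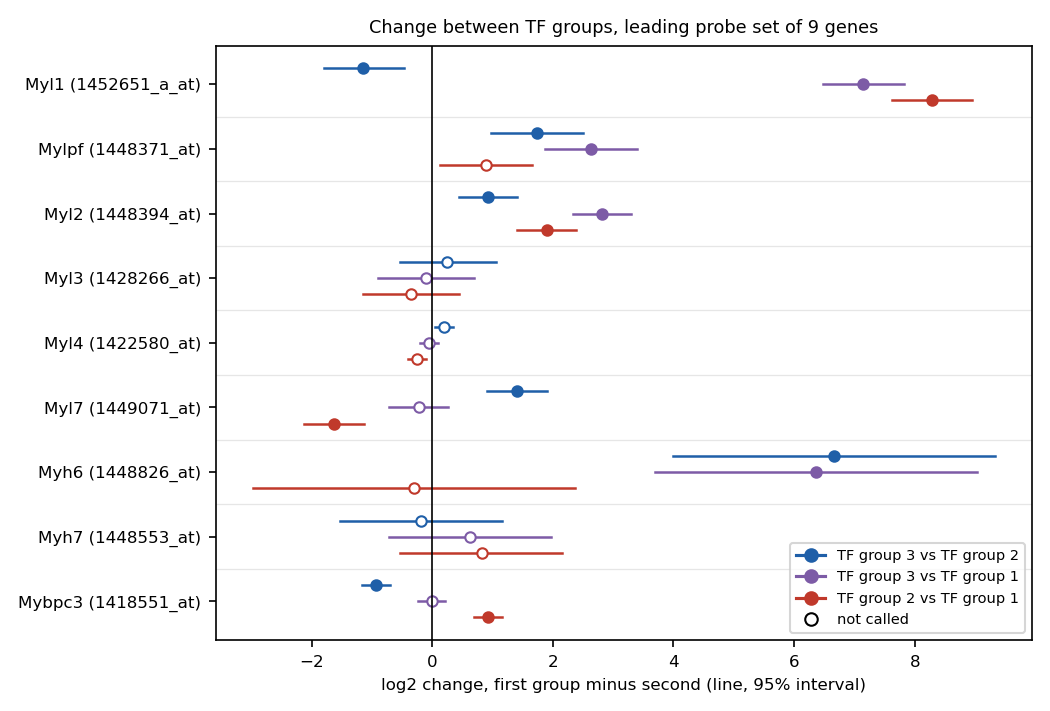
Log2 change of the leading probe set of each of the 9 genes between TF groups, with 95% intervals and open circles where a change was not called. TF group 3 against TF group 2 is drawn in blue, TF group 3 against TF group 1 in purple and TF group 2 against TF group 1 in red; Myl7 and Mybpc3 lie on opposite sides of 0 for the blue and red comparisons.

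Of the other thick filament genes and their partners, 4 were called against the negative control in at least one TF group. Of 24 listed genes, 12 were measured. Of these, 4 rose against the negative control in TF group 3, 3 in TF group 2 and 2 in TF group 1, and 0 fell. Over all genes, 14.7%, 15.3% and 15.1% rose and 9.84%, 10.1% and 8.93% fell. The count of 2 of 12 in TF group 1 is thus near the share over all genes. The list's median log2 change was -0.04 in TF group 3, 0.18 in TF group 2 and 0.43 in TF group 1. Myh1, a fast skeletal heavy chain, had mean log2 signals of 8.70 in TF group 3, 9.80 in TF group 2, 8.57 in TF group 1 and 5.22 in the negative control. It rose 11.1-fold, 23.9-fold and 10.2-fold in these TF groups, and was 2.14-fold lower in TF group 3 than with TF group 2 (adjusted p = 0.00293), with TF group 2 highest, as for Mybpc3. Myh2, another fast skeletal heavy chain, rose 2.46-fold in TF group 3, 5.09-fold in TF group 2 and, in TF group 1, 4.57-fold. Titin (Ttn), the spring that spans the half-sarcomere, rose at least 2.06-fold in TF group 3 and, in TF group 2, at least 6.26-fold, with a log2 change of 0.42 in TF group 1 that was not called. Myomesin (Myom1), which cross-links thick filaments at the M-band, was called against the negative control in TF group 3 (2.97-fold, adjusted p = 4.23e-05), and was also higher there than with TF group 2 (2.69-fold, adjusted p = 7.87e-04).

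Of the myosins of smooth muscle and of non-muscle cells and their partners, Myh11 and Mylk gave the largest changes. Of 14 listed genes, 11 were measured, and 3 rose and 0 fell in TF group 3, while 1 rose and 0 fell in TF group 2 and in TF group 1. With 14.7%, 15.3% and 15.1% of all genes higher in TF groups 3, 2 and 1, the single gene in TF groups 2 and 1 is no more than the share over all genes. Myh11, the smooth muscle heavy chain, had mean log2 signals of 11.46 in TF group 3, 6.27 in TF group 2, 5.83 in TF group 1 and 5.86 in the negative control, a rise of 48.4-fold in TF group 3 (adjusted p = 1.52e-08). Mylk, the kinase that phosphorylates smooth muscle regulatory light chains, rose 5.84-fold in TF group 3 (adjusted p = 1.98e-08). In that group, Myh11 and the cardiac Myh6 were thus both called, and Myh11 was 36.3-fold higher in TF group 3 than with TF group 2 (adjusted p = 3.37e-07). Myl12b, a non-muscle regulatory light chain, rose 1.75-fold in TF group 3, 2.22-fold in TF group 2 and, in TF group 1, 2.07-fold. Of the 6 smooth muscle markers, which include Myh11, 2 were called above the negative control in TF group 3, whereas 2 in TF group 2 and 3 in TF group 1 were called lower. Over all genes, 9.84%, 10.1% and 8.93% were lower in TF groups 3, 2 and 1. Their part in the results for the striated genes was not tested.

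**Figure D5:**
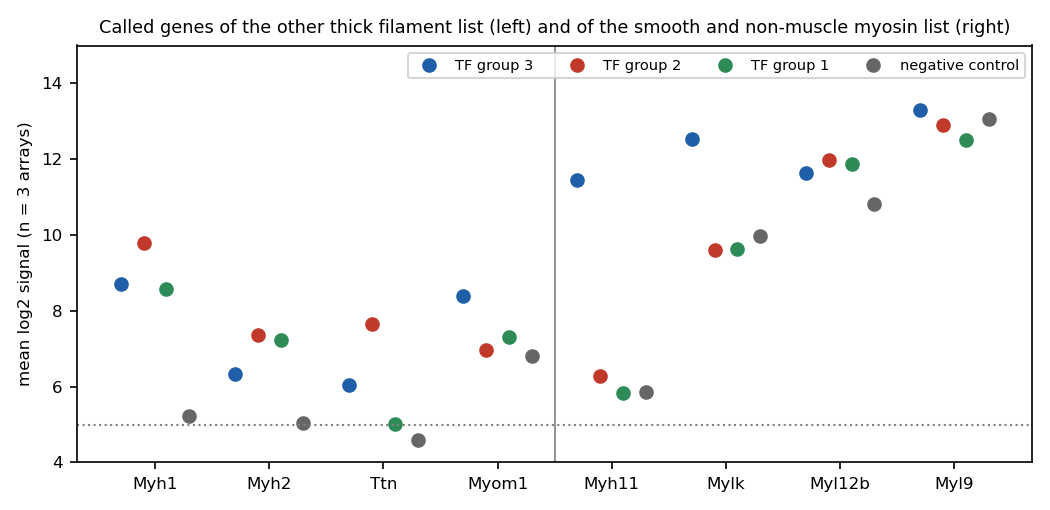
Mean log2 signal (n = 3 arrays) of the called genes of the other thick filament list (left of the line) and of the smooth muscle and non-muscle myosin list (right of the line) in TF group 3, TF group 2, TF group 1 and the negative control. The dotted line is the log2 floor of 5; Myh1 stands above the negative control in every TF group, and Myh11 at 11.46 in TF group 3 stands apart from the other groups.

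Thin filament genes, whose products the myosin heads act on, were also measured. Of 18 listed genes, 16 were measured, and 7 rose and 1 fell in TF group 3, 6 rose and 1 fell in TF group 2, and 4 rose and 1 fell in TF group 1. The gene that fell was Acta1 in each case. Over all genes, 14.7%, 15.3% and 15.1% rose in TF groups 3, 2 and 1, and 9.84%, 10.1% and 8.93% fell. The median log2 change was 0.80 in TF group 3, 0.68 in TF group 2 and 0.32 in TF group 1. The largest rises of this list belonged to Tnnt2 (log2 change 5.86) and Tnnc1 (5.59), when TF group 3 was set against the negative control. Actc1 followed there at 3.67. Against the same control, Lmod2 was called with TF group 2 alone (log2 change 4.78), a rise of at least 2.98-fold against the floor. Slow skeletal troponin T (Tnnt1), like Myh6, was called above the negative control in TF group 3, at least 3.92-fold against the floor (adjusted p = 0.0155). Its means in TF group 2, TF group 1 and the negative control lay below the floor. Slow skeletal troponin I (Tnni1), whose negative control mean also lay below the floor, was called higher at least 1.13-fold in TF group 3, at least 4.12-fold in TF group 2 and, in TF group 1, at least 4.87-fold. It was 4.33-fold lower in TF group 3 against TF group 1 (log2 change -2.11, adjusted p = 0.0229). The 8 cardiomyocyte markers had a median log2 change of 2.71 in TF group 3, 1.13 in TF group 2 and 1.01 in TF group 1. Their summed signal was 9594 to 10695 in TF group 3, 3069 to 3178 in TF group 2, 2219 to 2364 in TF group 1 and 406 to 480 in the negative control. Of these markers, 5 rose in TF group 3, 6 in TF group 2 and 4 in TF group 1. These counts, and those of the thin filament, include cardiac troponin I (Tnni3), which was called higher in every TF group although its means all lay below the floor, so that no fold can be read for it.

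Genes whose log2 signal over the 12 arrays was most like that of a member were sought among 2588 leading probe sets that reached the floor and varied between groups. For Myl1 these were Col6a3 (Pearson r = 0.993), F13a1 (0.992) and Blnk (0.988), and for Mybpc3 they were F11r (0.997), Ctsf (0.997) and Mlec (0.996). Myl4 was most like Airn (0.996), Npr2 (0.994) and Tmem45a (0.993). For Myh6, whose arrays outside TF group 3 lay below the floor, the closest was Ints13 (0.976), then Khdrbs3 (0.935) and Fam53a (0.923). Myl7 had Ppp1r3c (0.948), Fgl2 (0.945) and Itga7 (0.935), Myl2 had Nptx2 (0.964), Rasl11b (0.957) and Gcnt2 (0.944), and Mylpf had Kcnmb1 (0.949), Calcoco2 (0.947) and Pilra (0.945). Likeness was lowest for the uncalled Myh7, at 0.815 for Aqp3, and Myl3, at 0.831 for Krtcap3. The arrays fall into 4 groups, so a high value can come from a shared order of group means, and many genes were searched. For the closest gene of each member, deviations from the group means correlated at -0.568 (Myl2 with Nptx2) to 0.897 (Myh6 with Ints13). They were also high for Myl3 (0.88) and Myh7 (0.667). For these 3 members the likeness thus includes scatter among replicates, which for Myh6 lay below the floor outside TF group 3.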

How the data were processed

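RNA of 12 MEF cultures was measured on Affymetrix Mouse Genome 430A 2.0 arrays (22690 probe sets). The authors deposited linear signal intensity per probe set. The submitters' processing notes name RMA and Partek, but the values are linear, with a common trimmed mean per array, so the summarization behind the intensity is not known. Intensities were taken as log2 and not scaled again, without 64 control probe sets. limma 3.58.1 (R 4.3.3) fitted a mean per group to all 12 arrays; p-values were adjusted by Benjamini-Hochberg over 22626 probe sets. Folds against groups below 32 are bounds against 32, on group means of log2 signal. Genes follow the platform annotation: 20380 probe sets have 1 symbol, 691 several and 1555 none. Likeness was ranked over leading probe sets (highest mean log2 signal) with a group mean of 5 or more and group means spanning 1 or more. All members are named. Of the other thick filament list and the smooth muscle and non-muscle myosin list, the genes called against the negative control are named. The thin filament list and the marker lists are described through some of their called genes, not all. The fit was tested on simulated data. Neither scan dates nor protein sequences were used here. Members and lists were chosen with earlier results of these data known. Alternatives are given in the closing section; the spike scaling was added after seeing the data.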

Additional observations from a re-analysis of the deposited data

How the results depend on the processing

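Of 90 tests of member probe sets, 32 were called; 9 of these lost the call and 8 others gained one in the direction of their change under at least 1 alternative other than the unadjusted p. Counts called in TF group 3 against the negative control and against TF group 1 stayed within 1.5 times throughout. In TF group 3 against TF group 2, where 5 were higher and 2 lower, 2 to 4 were higher and 1 lower with an array left out. The lower count was 1 with an unmoderated model, a fold over 2 or a replicate block, and 2 were higher and 1 lower with arrays scaled to the poly-A spikes. Spike scaling also gave 3 lower in TF group 2 and 4 lower in TF group 1 against the negative control, where the main fit had 0 and 1. Under this scaling 48.5% of all probe sets were lower in TF group 2 and 58% in TF group 1, so these member counts are no more than that share. It also turned Myl7 in TF group 2 to -0.64 and Myl1 in TF group 1 to -0.93. In TF group 1, 0 were lower when signals below 32 were set to 32 or an offset of 50 was added before log2. Replicate numbers did not pair the arrays: the 18 same-number correlations of deviations were -0.02 to 0.05, and 6 of 12 arrays were closest to their own number. With the replicate block, Myh7 was called in TF group 3 (adjusted p = 0.0263) and TF group 2 (0.0137), and in TF group 3 against TF group 2 the calls of Myl1 (0.0951) and Myl2 (0.0717) were lost, and no other member call changed. Causes of these changes were not tested. Values below 32 limit Myh6 outside TF group 3, Myl1, Mylpf and Myl7 in the negative control, and Myl1, Mylpf and Myl2 in TF group 1.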
